A study of Arabidopsis thaliana with 16 samples.

Results

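Of 22746 probe sets on an Affymetrix array of Arabidopsis thaliana, 41 read lowest in leaves at the temperature of maximal photosynthesis and stood higher both before and after it. They were chosen by group means of the log2 signal: the mean at the photosynthetic optimum lay at least 0.4 below the mean at the growth temperature, and the means at 20% and 30% inhibition both lay at least 0.4 above the optimum. The 150 probe sets numbered for the organelle genomes were left out, so the choice was made among 22596. A probe set is a group of short probes read together as the measure of a transcript. The annotation of the array gave 1 gene for 17 of the 41 (41.5%), several genes for 1 and no gene for 23, so 17 genes can be named and the other probe sets are given by their number.

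The leaves were first fully expanded leaves of the line Columbia, with no transgene, mutation or added agent named in the labels. All plants had been raised at 22 °C with light for 10 h a day at 350 µmol m-2 s-1 and 60% relative humidity. Each of 4 states had 4 arrays: the baseline at the growth temperature, the optimum, and the points where photosynthesis had lost 20% and 30% of its optimum rate. Temperature was stepped up by 2 °C per 10 min between 22 and 42 °C, leaves were held 20 to 30 min for photosynthesis to settle, and a curve took 3 to 4 h. The baseline is the control. The labels give neither the leaf temperature of a state nor the time of day, so warming, elapsed time and the hour of sampling cannot be told apart. Each array is from leaves of plants picked at random, and p-values cover the spread among them, which may be partly technical.

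Warming a leaf acts on its transcripts in more than 1 way. Mild warmth reaches growth and clock regulators without damage to proteins, and stronger heat releases heat shock factors that switch on chaperone genes. A transcript can also fall because it is made less or because it is broken down faster, and array signals do not tell these apart, nor fewer cells of a type from less RNA per cell. Genes lowest at the optimum are therefore a small set defined by shape, not by a known pathway.

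RNA of photosynthetic tissue was plain in the arrays. The Rubisco activase RCA read 14.62 at baseline, sedoheptulose-bisphosphatase SBPASE 13.55, phosphoribulokinase PRK 13.48 and the antenna protein LHCB4.3 10.85. Only 4 of 10 leaf markers and 0 of 6 seed storage markers had a named probe set. Array medians ran from 6.07 to 6.19 and values from 3.25 to 14.7.

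Replicate 3 at 20% inhibition stood apart before any gene is considered. Its correlation with the other arrays of its state was 0.988 to 0.990, against 0.997 for the closest pair of that state. With the optimum arrays it was 0.967 to 0.970, against 0.960 to 0.966 for the other 20% inhibition arrays. A control for 25S rRNA, which carries no poly(A) tail, read 5.25 in that array and 10.41, 12.88 and 12.99 in the other arrays of that state. At 30% inhibition the same control ran from 8.67 to 11.35, and in the 8 arrays of baseline and optimum from 5.52 to 6.41. Among the 41 members this replicate was the lowest array of its state in 30 (73.2%), against 29.1% of all nuclear probe sets, which were not chosen to rise after the optimum. Its median deviation from the state mean was −0.26 over the members and 0.01 over all nuclear probe sets. It read above the optimum mean in 40 of the 41 and above every optimum array in 36. The array enters the 20% mean that chose the members, so nothing is read from these counts. Counts without this array and with the 25S signal as a covariate are given beside the main counts.

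**Figure D1:**
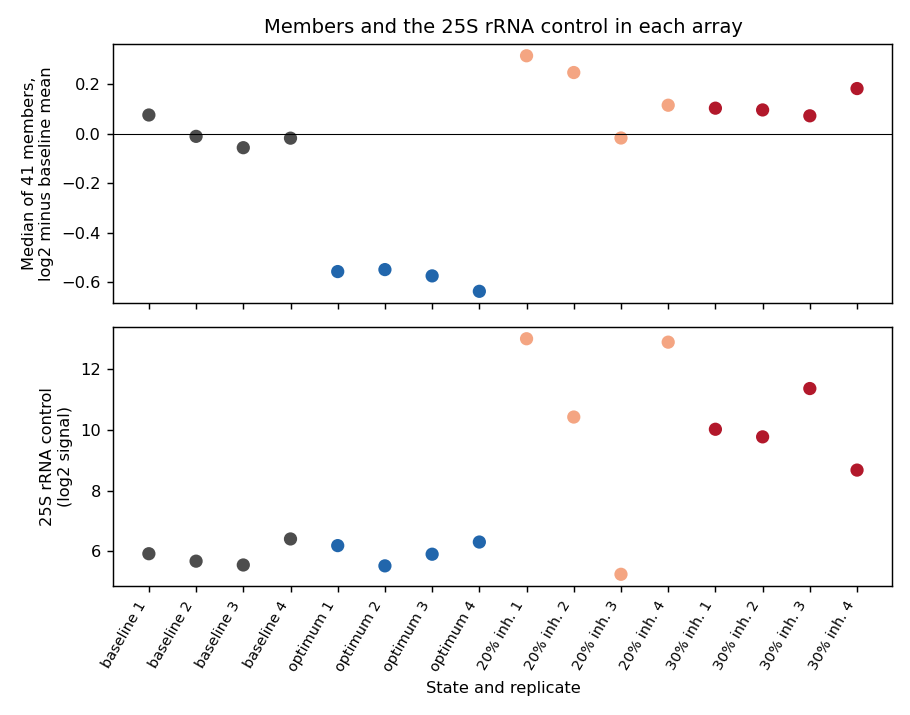
The upper panel gives, for each of the 16 arrays, the median over the 41 members of the log2 signal minus that member's baseline mean, and the lower panel the log2 signal of the 25S rRNA control. The 4 optimum arrays lie between −0.64 and −0.55, and replicate 3 at 20% inhibition is the lowest of its state in both panels.

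The drop at the optimum was moderate. Optimum minus baseline ran from −1.34 to −0.41 on the log2 scale with a median of −0.55. The return was larger in its range: 20% inhibition stood 0.40 to 3.61 above the optimum (median 0.78) and 30% inhibition 0.41 to 3.15 (median 0.71). These differences chose the members and are descriptions. The depth of the dip, the lowest of the other 3 state means minus the optimum mean, had a median of 0.50 and a maximum of 1.03. In 32 of the 41 all 4 optimum arrays lay below all 12 others, which held for 1.07% of the 22596 nuclear probe sets. That separation uses the contrasts that chose the members, and nothing is read from it.

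The optimum and baseline arrays chose the members, so their levels are given as a description. The median of the members relative to the baseline mean was −0.56, −0.55, −0.57 and −0.64 in the 4 optimum arrays. It was −0.02 to 0.31 at 20% inhibition and 0.07 to 0.18 at 30% inhibition. When each optimum array was left out and the members were chosen again on the other 15, the array left out read below the remaining 3 state means in 45 of 46, 45 of 45, 42 of 43 and 32 of 32 probe sets. It lay at least 0.4 below all 3 means in 27, 26, 29 and 27 of these. The choice required those means to be high and no share over all probe sets was counted, so nothing is read from these counts. Replicate 4 of the optimum decided most: without it 32 were chosen, 30 of them among the 41.

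**Figure D2:**
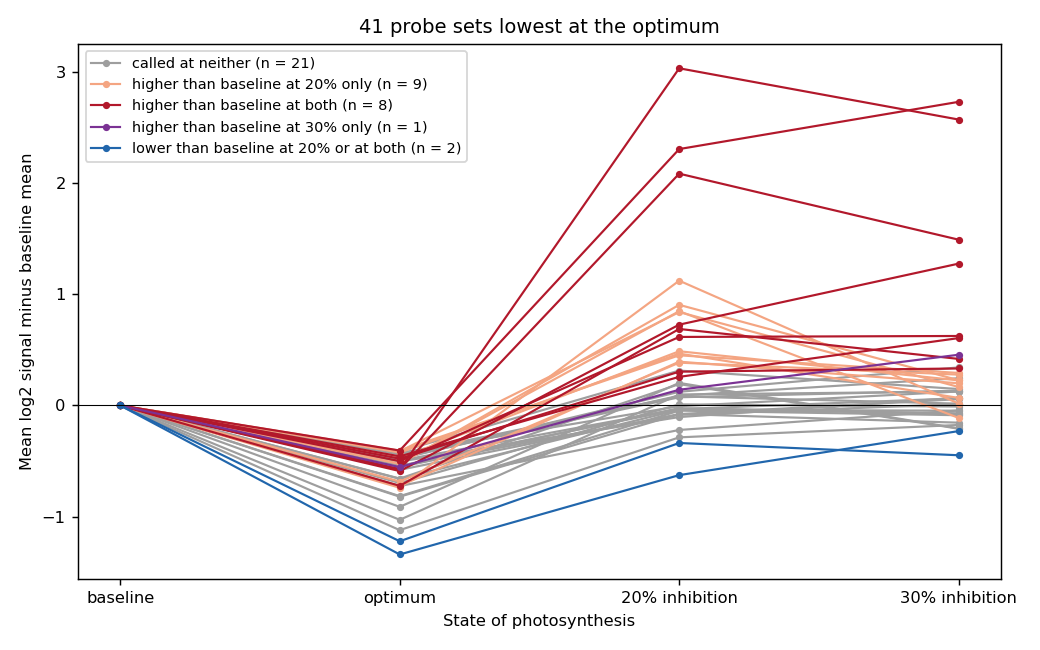
Each line is 1 of the 41 members, drawn as the mean log2 signal of 4 arrays minus the baseline mean across the 4 states. Colours give the calls against the baseline; 21 members were called at neither inhibited state, and 3 lines end more than 1.4 above the baseline.

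Few transcripts that were low at the optimum came back. Of 928 nuclear probe sets with optimum means at least 0.4 below the baseline, 41 (4.42%) returned by at least 0.4 at both inhibited states. A further 384 (41.4%) went at least 0.4 lower still at both. Another 9 returned by that much at 20% inhibition only, 22 at 30% inhibition only, and 472 did none of these. The mirrored shape was more common: of 1225 probe sets at least 0.4 higher at the optimum, 278 (22.7%) were at least 0.4 lower again at both inhibited states. Such turning shapes share the optimum arrays between their steps, and the shares are counts with no test.

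**Figure D3:**
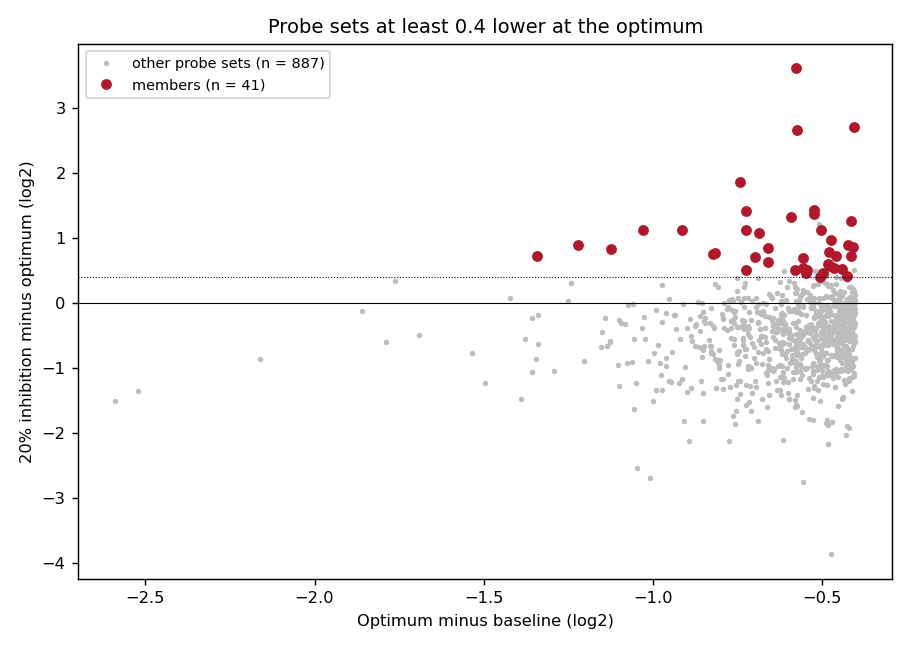
Each point is 1 of the 928 nuclear probe sets at least 0.4 lower at the optimum than at baseline; the x axis is optimum minus baseline and the y axis 20% inhibition minus optimum, both log2. The 41 members lie at or above the dotted line at 0.4, and 774 of the other 887 (87.3%) lie below 0.

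The rule set no direct bound on the differences among the baseline and the 2 inhibited states, so these were tested. The same arrays had entered the rule, which limits the differences from the baseline in both directions. A member could lie below the baseline only where its drop at the optimum exceeded its return of at least 0.4. It could lie above the baseline only where its return exceeded its drop of at least 0.4. Shares of members higher or lower than the baseline are thus set in part by the choice and are descriptions beside those of all probe sets. A probe set was called, and is said to have risen or fallen, at an adjusted p under 0.05 in limma, adjusted over all 22746 probe sets of the comparison. At 20% inhibition 17 of the 41 were above the baseline (41.5%), where 18.9% of all probe sets were called higher, and 2 were below it, where 24.9% of all were called lower. At 30% inhibition 9 were above the baseline (22%), a share near the 19.3% of all probe sets, and 1 was below it, against 24.9% of all. Neither inhibited state was called different from the baseline for 21 of the 41 (51.2%), a share near the 48.5% of all probe sets; a missed threshold does not show that the levels were the same.

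Over the members 20% inhibition minus baseline had a median of 0.14 and 30% inhibition minus baseline of 0.13, where the medians of all probe sets were 0.00 and −0.01. Without regard to sign the median difference was 0.26 at 20% and 0.18 at 30% inhibition over the members, and 0.18 at both over all probe sets. Individual values ran from −0.63 to 3.03 at 20% inhibition and from −0.45 to 2.73 at 30% inhibition. Of those called, 8 (19.5%) were above the baseline at both inhibited states, where 15.4% of all probe sets were. Another 9 (22%) were called above it at 20% inhibition and at 30% not called, a pattern of 3.53% of all. The reverse held for 1 (2.44%), against 3.87% of all. A call at 1 state and not at the other is no test of the difference between the states, which is the next comparison.

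Between the inhibited states members moved both ways. From 20% to 30% inhibition 5 rose, against 4.19% of all probe sets, and 6 fell, against 2.97% of all. The median over the members was −0.04. Without 20% inhibition replicate 3, 4 rose and 9 fell, against 5.83% and 3.64% of all probe sets. Against the baseline 19 were then higher and 1 lower at 20% inhibition, where 18.7% and 25.4% of all were. At 30% inhibition 13 were higher and 1 lower, against 20.2% and 26.1% of all, so the share higher there was no longer as near that of the array. With the 25S signal as a covariate 12 were higher and 4 lower at 20% inhibition, against 15.3% and 19.8% of all, and 8 higher and 2 lower at 30% inhibition, against 16.1% and 20.4%. That signal was at most 6.41 at baseline and optimum, and at least 8.67 in every inhibited array but 20% inhibition replicate 3. It nearly follows the states, so these adjusted differences lean heavily on that array.

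**Figure D4:**
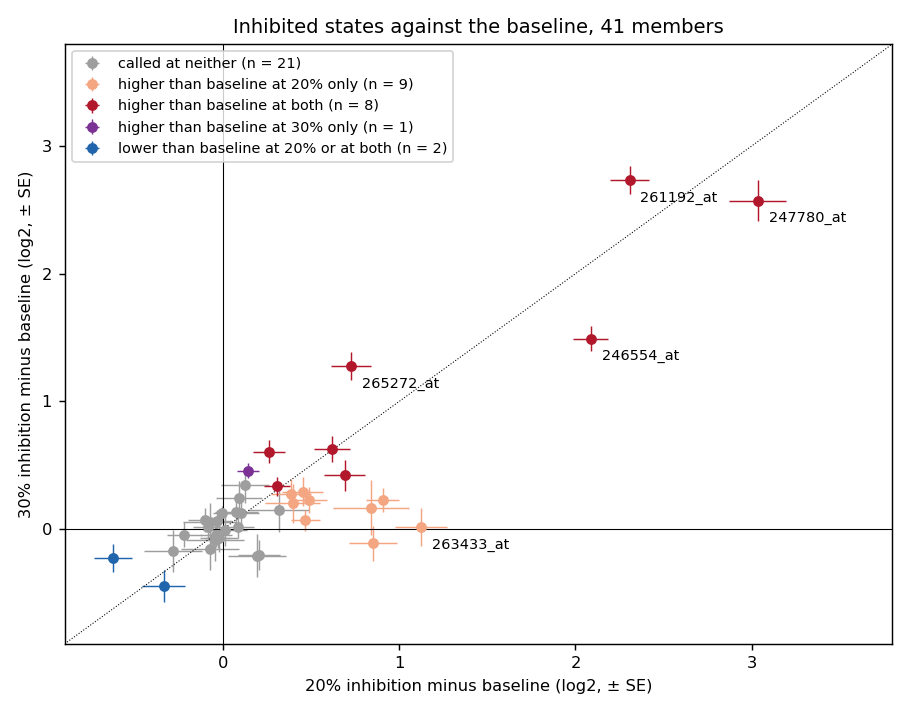
For each of the 41 members the log2 difference of 20% inhibition from the baseline (x axis) is set against that of 30% inhibition (y axis), with standard errors from limma as bars and equality as a dotted line. Members cluster near 0 on both axes, 3 probe sets lie beyond 1.4 on both, and 263433_at lies at 1.12 and 0.02.

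The 17 named members are taken in an order by role that comes from general knowledge of the genes, since the annotation used gives no descriptions. This order is no tested grouping. In a keyword class fell 0 members and 316 of the 13513 probe sets with 1 gene, so nothing is read from the 0. None of the 17 genes had another probe set with a name on the array, so each level rests on 1 probe set. No level is compared here between genes, since probes differ in brightness.

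**Figure D5:**
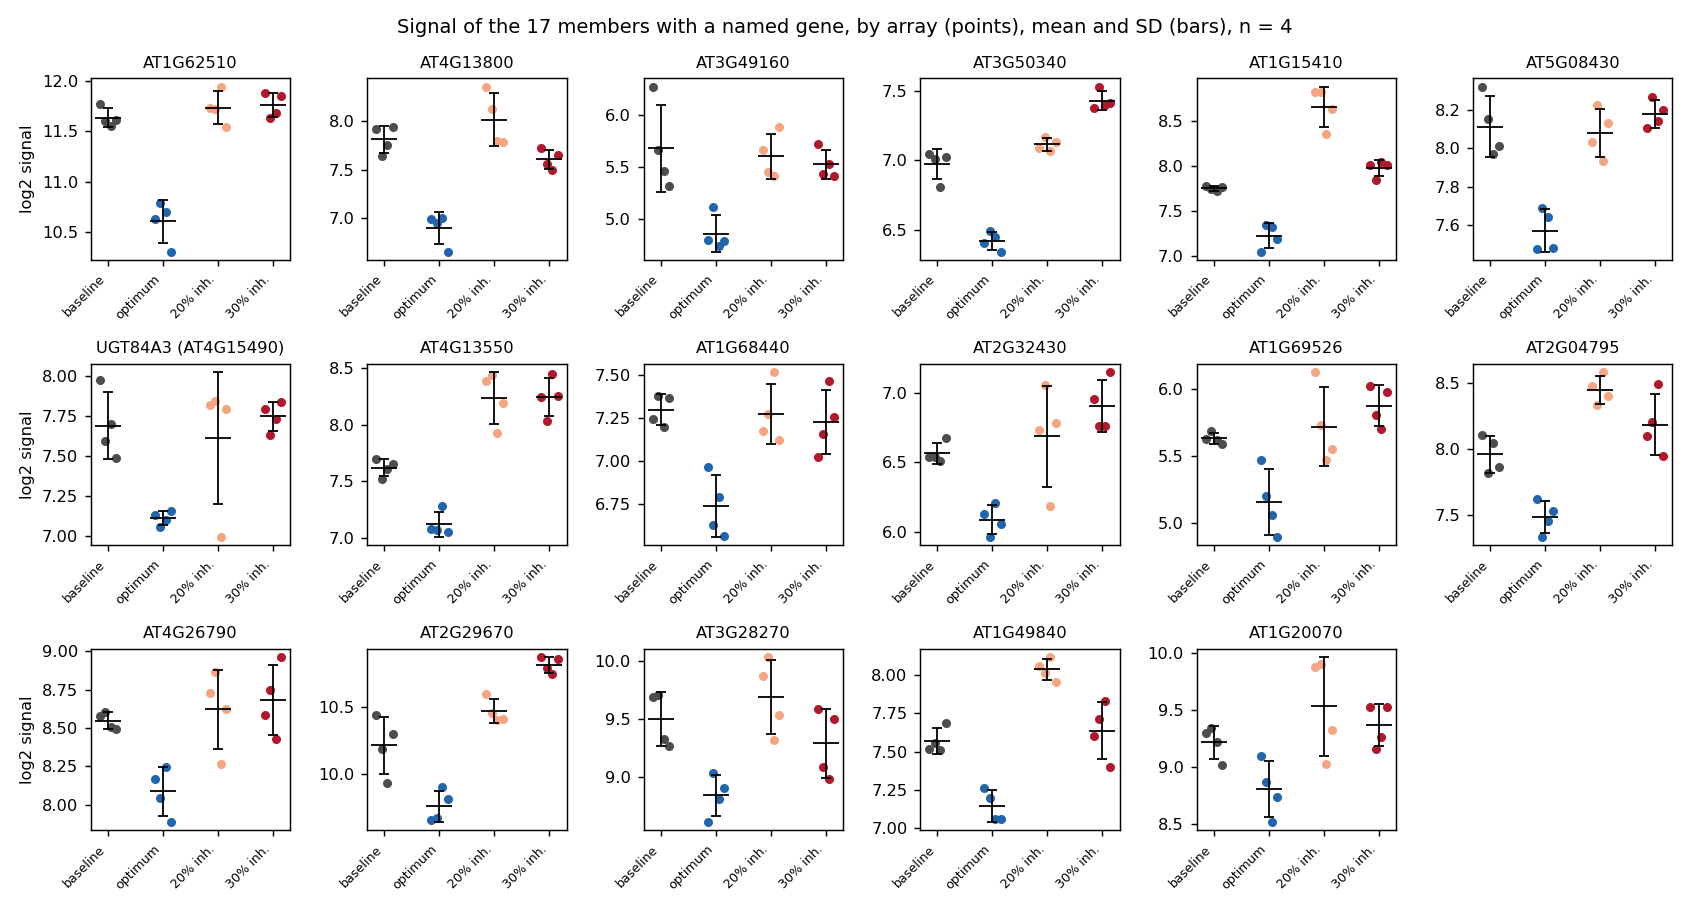
Each panel shows the log2 signal of 1 of the 17 named members in the 16 arrays (points, coloured by state), with the mean and the SD of 4 arrays as black bars; the y axes differ and do not start at 0. The optimum is the lowest state in every panel by the rule. In UGT84A3, AT2G32430, AT1G20070 and AT1G69526 replicate 3 at 20% inhibition lies below the highest optimum array.

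Among proteins of lipids and membranes, AT1G62510 had the deepest dip of the 41. It encodes a small secreted protein of the lipid-transfer and seed storage protein superfamily. It read 11.77, 11.60, 11.55 and 11.61 at baseline and 10.62, 10.79, 10.70 and 10.30 at the optimum. At 20% inhibition it read 11.73, 11.72, 11.94 and 11.54, and at 30% inhibition 11.88, 11.63, 11.68 and 11.84. The optimum arrays are apart from all others and the remaining states overlap. Baseline signal was 2.04-fold that of the optimum, and 20% and 30% inhibition differed from the baseline by 0.10 ± 0.10 and 0.13 ± 0.10 (SE; adjusted p = 0.48 and 0.36), with no call.

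AT4G13550, a putative triacylglycerol lipase, came back past its starting level. Its baseline arrays read 7.69, 7.52, 7.61 and 7.66 and its optimum arrays 7.08, 7.06, 7.29 and 7.05. The inhibited states read 8.39, 8.44, 7.93 and 8.19 at 20% and 8.25, 8.04, 8.45 and 8.25 at 30%. All 8 inhibited arrays stood above all baseline arrays. It rose against the baseline by 0.62 ± 0.10 at 20% inhibition (adjusted p = 9.8e-05) and by 0.63 ± 0.10 at 30% inhibition (adjusted p = 8.2e-05), and the inhibited states differed by 0.01 ± 0.10 (adjusted p = 0.98).

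AT4G26790, a lipase-like enzyme of the GDSL family, returned to about the baseline range. It read 8.58, 8.61, 8.51 and 8.50 at baseline, 8.17, 8.04, 8.25 and 7.89 at the optimum, 8.73, 8.87, 8.26 and 8.63 at 20% inhibition and 8.59, 8.75, 8.43 and 8.96 at 30% inhibition. Replicate 3 at 20% inhibition lay just above the highest optimum array. Neither inhibited state was called against the baseline (0.07 ± 0.12 and 0.13 ± 0.12, adjusted p = 0.68 and 0.43).

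AT4G13800 belongs to the NIPA family of membrane proteins, which are taken to carry magnesium. Its dip was the next deepest among named genes, with a baseline 1.88-fold the optimum. The baseline arrays were 7.92, 7.64, 7.75 and 7.94 and the optimum arrays 6.99, 6.96, 7.01 and 6.66. At 20% inhibition it read 8.36, 8.13, 7.80 and 7.79, above every array of 30% inhibition (7.72, 7.56, 7.50 and 7.65). It fell from 20% to 30% inhibition by 0.41 ± 0.12 on the log2 scale (adjusted p = 0.046), a call that was lost under 13 of the 16 fits that leave out 1 array. Against the baseline it was 0.20 ± 0.12 at 20% and −0.21 ± 0.12 at 30% inhibition, neither called.

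AT3G28270, of the At14a-like family of membrane-associated proteins, varied widely within states. It read 9.69, 9.71, 9.33 and 9.27 at baseline, 8.61, 9.04, 8.81 and 8.91 at the optimum, 9.87, 10.04, 9.32 and 9.54 at 20% inhibition and 9.59, 9.09, 8.98 and 9.51 at 30% inhibition. The optimum and 30% inhibition arrays overlap. No tested difference was called (30% minus 20% inhibition −0.40 ± 0.17, adjusted p = 0.17).

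Enzymes of primary metabolism included AT1G15410, of the aspartate and glutamate racemase family, which gave the clearest peak among named members. It read 7.78, 7.74, 7.72 and 7.77 at baseline and 7.05, 7.35, 7.32 and 7.19 at the optimum. It then read 8.82, 8.83, 8.35 and 8.63 at 20% inhibition and 8.01, 7.85, 8.05 and 8.02 at 30% inhibition. No array of any state overlapped with another state. The gene rose by 0.91 ± 0.09 from baseline to 20% inhibition (adjusted p = 4.5e-07) and fell by 0.68 ± 0.09 on the log2 scale from 20% to 30% inhibition (adjusted p = 0.00026). At 30% inhibition it was 0.23 ± 0.09 above the baseline (adjusted p = 0.059), a difference that was called without 20% inhibition replicate 3 (adjusted p = 0.014) and under 3 further settings.

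AT3G49160, of the pyruvate kinase family of glycolysis, had its dip on an uneven baseline. It read 6.27, 5.66, 5.46 and 5.31 there, 4.79, 5.12, 4.73 and 4.78 at the optimum, 5.66, 5.45, 5.41 and 5.88 at 20% inhibition and 5.71, 5.44, 5.53 and 5.41 at 30% inhibition. Baseline replicate 1 alone lies above every array of the inhibited states, and the optimum arrays lie below all others. The inhibited states differed from the baseline by −0.08 ± 0.16 and −0.15 ± 0.16 and were not called.

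UGT84A3 (AT4G15490) encodes a glucosyltransferase that makes glucose esters of hydroxycinnamic acids such as sinapate, which feed the leaf's ultraviolet screens. It read 7.98, 7.60, 7.70 and 7.49 at baseline and 7.13, 7.05, 7.10 and 7.16 at the optimum. At 20% inhibition it read 7.82, 7.84, 6.99 and 7.79 and at 30% inhibition 7.79, 7.63, 7.73 and 7.84. Replicate 3 at 20% inhibition lay below all 4 optimum arrays while the other arrays of that state lay above them. With all arrays 20% inhibition was −0.08 ± 0.15 from the baseline (adjusted p = 0.72), and without that replicate 0.13 (adjusted p = 0.27); neither was called.

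AT1G69526, a methyltransferase of the type that uses S-adenosylmethionine, varied most at 20% inhibition. It read 5.62, 5.68, 5.62 and 5.59 at baseline, 5.47, 5.20, 5.06 and 4.89 at the optimum, 6.13, 5.73, 5.47 and 5.55 at 20% inhibition and 6.02, 5.80, 5.70 and 5.97 at 30% inhibition. The optimum's highest array just touched the lowest of 20% inhibition. All arrays of 30% inhibition stood above all baseline arrays, yet the difference of 0.25 ± 0.13 was not called (adjusted p = 0.15).

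AT2G32430, a galactosyltransferase of the kind that builds sugar chains on proteins, read lowest at 20% inhibition in replicate 3. It read 6.54, 6.54, 6.51 and 6.68 at baseline, 6.13, 5.96, 6.21 and 6.05 at the optimum, 6.74, 7.06, 6.19 and 6.78 at 20% inhibition and 6.96, 6.77, 6.76 and 7.16 at 30% inhibition. Without replicate 3 of 20% inhibition it rose against the baseline by 0.29 at 20% (adjusted p = 0.025) and by 0.34 at 30% inhibition (adjusted p = 0.0054). With all arrays these differences were 0.12 ± 0.14 (adjusted p = 0.52) and 0.34 ± 0.14 (adjusted p = 0.052). The difference at 30% inhibition was also called without replicate 2 of 20% inhibition (adjusted p = 0.027) and without replicate 2 or 3 of 30% inhibition (adjusted p = 0.047 and 0.046).

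Of the genes for nuclear proteins, AT5G08430, which carries a SWIB domain of chromatin-bound proteins, dipped and returned. It read 8.32, 8.15, 7.97 and 8.01 at baseline, 7.48, 7.69, 7.64 and 7.48 at the optimum, 8.03, 8.23, 7.93 and 8.13 at 20% inhibition and 8.11, 8.27, 8.14 and 8.20 at 30% inhibition. Optimum arrays lay below the other 12, which overlap. Differences from the baseline were −0.03 ± 0.08 and 0.06 ± 0.08, with no call.

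AT2G29670, whose protein has tetratricopeptide repeats used in protein contacts, climbed step by step after the optimum. It read 10.44, 10.18, 9.93 and 10.30 at baseline, 9.65, 9.67, 9.90 and 9.81 at the optimum, 10.60, 10.46, 10.41 and 10.41 at 20% inhibition and 10.87, 10.79, 10.75 and 10.86 at 30% inhibition. It rose against the baseline by 0.26 ± 0.09 at 20% (adjusted p = 0.029) and by 0.61 ± 0.09 at 30% inhibition (adjusted p = 2.9e-05), and by 0.35 ± 0.09 between the inhibited states (adjusted p = 0.027). The call at 20% inhibition ended with the 25S control as a covariate (adjusted p = 0.26) and without any of 3 single arrays, and at its lowest the difference was 0.16 (without baseline replicate 3). The call between the inhibited states ended with arrays centred on their medians (adjusted p = 0.060) and without any of 5 single arrays.

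Members without a function stated here included AT3G50340, which took the same course as AT2G29670. It read 7.05, 7.01, 6.81 and 7.03 at baseline, 6.40, 6.49, 6.45 and 6.34 at the optimum, 7.09, 7.17, 7.07 and 7.14 at 20% inhibition and 7.38, 7.53, 7.40 and 7.42 at 30% inhibition. Its 4 states did not overlap in any array, with 20% inhibition just above the baseline. The gene was 0.14 ± 0.06 above the baseline at 20% inhibition (adjusted p = 0.069). This difference was called with arrays centred on their medians (adjusted p = 0.030) and with quantile normalisation repeated (adjusted p = 0.028). The gene rose by 0.46 ± 0.06 at 30% inhibition (adjusted p = 7.5e-06) and by 0.32 ± 0.06 between the inhibited states (adjusted p = 0.0037).

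AT1G49840, of a protein family of unknown function, peaked at 20% inhibition. It read 7.52, 7.56, 7.51 and 7.69 at baseline, 7.26, 7.20, 7.06 and 7.06 at the optimum, 8.06, 8.01, 8.12 and 7.95 at 20% inhibition and 7.60, 7.71, 7.83 and 7.40 at 30% inhibition. The arrays of 20% inhibition lie above all others, replicate 3 included. It rose by 0.47 ± 0.08 against the baseline at 20% inhibition (adjusted p = 0.00015) and fell by 0.40 ± 0.08 on the log2 scale to 30% inhibition (adjusted p = 0.0064), where it was 0.07 ± 0.08 from the baseline.

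AT2G04795 was likewise highest at 20% inhibition. It read 8.10, 7.82, 8.04 and 7.86 at baseline, 7.62, 7.33, 7.45 and 7.53 at the optimum, 8.47, 8.33, 8.58 and 8.40 at 20% inhibition and 8.09, 8.20, 8.49 and 7.94 at 30% inhibition. It rose by 0.49 ± 0.10 at 20% inhibition (adjusted p = 0.00089). The later difference of −0.26 ± 0.10 between the inhibited states was not called (adjusted p = 0.15), but was without 30% inhibition replicate 3 (−0.36, adjusted p = 0.029). At 30% inhibition it was 0.23 ± 0.10 above the baseline (adjusted p = 0.091), a difference called without 30% inhibition replicate 4 (0.31, adjusted p = 0.024).

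AT1G68440 and AT1G20070 close the named set. AT1G68440 read 7.24, 7.38, 7.20 and 7.36 at baseline, 6.97, 6.63, 6.79 and 6.57 at the optimum, 7.18, 7.27, 7.52 and 7.12 at 20% inhibition and 7.03, 7.15, 7.46 and 7.25 at 30% inhibition, with no call. AT1G20070 read 9.30, 9.34, 9.22 and 9.02 at baseline, 9.10, 8.87, 8.51 and 8.74 at the optimum, 9.88, 9.91, 9.02 and 9.32 at 20% inhibition and 9.52, 9.16, 9.26 and 9.52 at 30% inhibition. Its optimum and baseline arrays overlap, since optimum replicate 1 exceeded baseline replicate 4. The same optimum array exceeded replicate 3 at 20% inhibition. At 20% inhibition the gene was 0.31 ± 0.17 above the baseline (adjusted p = 0.16), and without replicate 3 of that state 0.48 (adjusted p = 0.014).

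The largest rises past the baseline lay in probe sets without a gene in the annotation, named here after their values were seen. Probe set 247780_at read 8.94, 8.52, 8.33 and 8.48 at baseline and 7.74, 8.33, 8.04 and 7.86 at the optimum. It then read 11.83, 11.79, 11.18 and 11.61 at 20% inhibition and 11.35, 10.91, 11.05 and 11.26 at 30% inhibition. It rose 8.19-fold and 5.95-fold against the baseline (3.03 ± 0.16 and 2.57 ± 0.16, adjusted p = 1.0e-10 and 8.4e-10), and its optimum and baseline arrays touched.

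Probe set 261192_at kept climbing. It read 5.99, 5.80, 5.99 and 5.71 at baseline, 5.59, 5.47, 5.37 and 5.45 at the optimum, 8.19, 8.51, 7.82 and 8.21 at 20% inhibition and 8.53, 8.72, 8.56 and 8.62 at 30% inhibition. Its rise was 4.95-fold at 20% and 6.65-fold at 30% inhibition (2.31 ± 0.11 and 2.73 ± 0.11), and 0.42 ± 0.11 between them (adjusted p = 0.027). The course of 265272_at was similar at smaller size, with 0.73 ± 0.11 at 20%, 1.28 ± 0.11 at 30% and 0.55 ± 0.11 between the inhibited states (adjusted p = 0.0065).

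Bright at every state, 246554_at read 11.17, 11.02, 11.11 and 11.15 at baseline, 10.66, 10.51, 10.53 and 10.45 at the optimum, 13.35, 13.32, 12.91 and 13.20 at 20% inhibition and 12.68, 12.33, 12.75 and 12.65 at 30% inhibition. No state overlapped with another. It rose by 2.09 ± 0.10 and 1.49 ± 0.10 against the baseline and fell by 0.59 ± 0.10 on the log2 scale from 20% to 30% inhibition (adjusted p = 0.0012).

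Of the probe sets called above the baseline at 20% inhibition and not at 30%, 263433_at and 259081_at also had a called fall between them, like AT1G15410. The first read 8.82, 8.72, 8.70 and 8.76 at baseline, 7.72, 7.99, 8.19 and 8.14 at the optimum, 10.10, 10.02, 9.50 and 9.89 at 20% inhibition and 8.93, 8.38, 9.11 and 8.65 at 30% inhibition. It rose by 1.12 ± 0.15 at 20% inhibition and fell by 1.11 ± 0.15 on the log2 scale to 30% inhibition (adjusted p = 7.1e-06 and 0.00019), ending 0.02 ± 0.15 from the baseline. For 259081_at the rise was 0.85 ± 0.14 and the later fall −0.96 ± 0.14 (adjusted p = 6.3e-05 and 0.00033).

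In 263739_at replicate 3 at 20% inhibition decided a call. That state read 10.43, 10.41, 9.05 and 10.17, and 30% inhibition 9.27, 9.47, 9.27 and 9.36. The difference between them was −0.67 ± 0.21 with all arrays (adjusted p = 0.071) and −0.995 without that replicate (adjusted p = 5.1e-06). It rose against the baseline at 20% inhibition either way, by 0.84 ± 0.21 and by 1.16. The same array decided the call between the inhibited states in 247780_at and 248311_at. Their adjusted p was 0.10 and 0.21 with it, and 0.016 and 0.012 without it.

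Called below the baseline at 20% inhibition were 262883_at and 246071_at. Probe set 262883_at read 9.29, 9.10, 9.21 and 9.02 at baseline, 8.02, 7.71, 7.88 and 7.65 at the optimum, 8.79, 8.55, 8.35 and 8.43 at 20% inhibition and 8.92, 8.75, 8.89 and 9.16 at 30% inhibition. Optimum minus baseline was −1.34. It differed from the baseline at 20% inhibition by −0.63 ± 0.11 (adjusted p = 0.00013), rose by 0.40 ± 0.11 to 30% inhibition (adjusted p = 0.036) and was then −0.23 ± 0.11 from the baseline (adjusted p = 0.10). The rise between the inhibited states was not called without 20% inhibition replicate 3 (0.34, adjusted p = 0.075).

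Probe set 246071_at read 8.28, 7.88, 7.63 and 7.94 at baseline, 6.75, 6.75, 6.83 and 6.50 at the optimum, 7.71, 7.80, 7.30 and 7.56 at 20% inhibition and 7.39, 7.44, 7.50 and 7.60 at 30% inhibition. It differed from the baseline by −0.34 ± 0.12 at 20% (adjusted p = 0.034) and by −0.45 ± 0.12 at 30% inhibition (adjusted p = 0.0064). The first of these calls ended without 20% inhibition replicate 3 (−0.24, adjusted p = 0.12).

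Probe set 246700_at had the deepest dip after AT1G62510, at 0.83, from 7.19, 6.71, 6.75 and 6.60 at baseline to 6.00, 5.65, 5.63 and 5.49 at the optimum. It came back to 6.83, 6.50, 6.21 and 6.56 at 20% and 7.06, 6.31, 6.51 and 6.67 at 30% inhibition, with no call against the baseline. The least variable was 250972_at, with optimum arrays at 9.28, 9.18, 9.21 and 9.29 and the other 12 arrays between 9.62 and 9.89. The remaining probe sets without a single gene had dips between 0.40 and 0.73.

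Probe sets differ in brightness, so mean signal is given only as a feature of the probe sets. When nuclear probe sets were split into 3 equal classes by mean signal, 0 of the 41 were in the dimmest (below 5.02), 12 in the middle and 29 in the brightest (above 7.40). The median within-state SD of the members was 0.18, against 0.12 for all nuclear probe sets. By the RefSeq annotation (assembly TAIR10.1, Columbia) the 17 named genes had a median length of 2066 bases, against 2123 for all genes with a named nuclear probe set. They were spread over the chromosomes, with 6 on chromosome 1, 3 on each of chromosomes 2 and 3, 4 on chromosome 4 and 1 on chromosome 5. The closest, AT4G13550 and AT4G13800, stood 28 protein-coding genes apart.

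Pathway lists could say little about the members. Of the 17 genes 0 were among 149 loci of 9 lists, of which 23 had a named probe set. The array had 13513 probe sets with 1 gene, so 0 was likely for any set of this size and nothing is read from it. Members without a single gene could not be looked up. The lists covered the circadian clock (3 of 20 loci named), cold and dehydration (3 of 13), jasmonate (1 of 26), touch and rapid stress (5 of 24), auxin and warm growth (5 of 22), salicylate and defence (1 of 12), heat shock (1 of 16), and leaf and seed markers. Median optimum minus baseline was 0.04, 0.90, −0.46, 0.16, −0.01, 0.08 and 0.58 over the measured genes of the first 7 lists, and −0.29 over the leaf markers, against −0.03 for all nuclear probe sets. The listed gene closest to the shape was IAA29 (AT4G32280), an auxin-signalling repressor: its mean went from 9.90 to 9.65 at the optimum and to 10.39 and 10.17 at the inhibited states, a dip of 0.26 that the rule does not reach. JMT (AT1G19640), a jasmonate methyltransferase, was −0.46 from the baseline at the optimum and within 0.15 of that level later.

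Dips near the threshold of the rule ran close together. The 3 nearest inside were 266830_at, 261192_at and 253166_at, with dips of 0.40, 0.41 and 0.41. Just outside lay 257035_at, AT4G30450 and AT3G07870, with dips of 0.40, 0.38 and 0.38, the first below 0.4 before rounding. At a threshold of 0.3 in place of 0.4 there were 83 members and at 0.5 there were 22.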

How the data were processed

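The authors deposited log2 signals per probe set for 16 one-colour Affymetrix arrays, hybridised with biotin-labelled cRNA from 6 µg of total RNA per the labels' protocols. The submitters' processing notes name RMA, which corrects the background, equalises array distributions and summarises the probes of a set, and limma, with no version or genome build; the deposited values were used as they stand. Of 22810 probe sets, 64 controls were left out.

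Here R 4.3.3 and limma 3.58.1 fitted 4 group means to all 16 arrays (lmFit, eBayes; 12 residual and 4.21 prior degrees of freedom) with 2-sided tests and Benjamini-Hochberg adjustment over 22746 probe sets; the fit was tested on simulated data. Errors are SE from limma or SD of 4 arrays. Precision is limited by the number of arrays. Genes were named from the array's annotation (13513 probe sets with 1 gene, 503 with several, 8730 with none) and RefSeq TAIR10.1. The members, lists and tests were chosen with earlier results of these data known. The rule for named genes took the 15 deepest members with 1 gene, the largest called changes, list members and the 3 probe sets nearest each side of the rule, and it named 16; AT1G20070 was added after its values were seen, so that all 17 with 1 gene are described. Keyword classes matched 0 members and 316 of the 13513 probe sets with 1 gene. Promoter sequences were not used here.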

Additional observations from a re-analysis of the deposited data

Results flagged for a closer look

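In each of the 164 sets of 4 arrays (41 members in 4 states) the highest or lowest array was compared with the others by its gap over the range, and 6 passed Dixon's 95% critical value; chance flags about 1 in 20 groups. UGT84A3 (AT4G15490) at 20% inhibition read 6.99 in replicate 3 and 7.79 to 7.84 in the others. AT4G13800 at the optimum read 6.66 in replicate 4, against 6.96 to 7.01. AT3G49160 at the optimum read 5.12 in replicate 2, against 4.73 to 4.79. AT4G13550 at the optimum read 7.29 in replicate 3, against 7.05 to 7.08. AT3G50340 at baseline read 6.81 in replicate 3, against 7.01 to 7.05. Probe set 248311_at at baseline read 9.46 in replicate 4, against 9.36 to 9.37. These 6 lay in 6 different arrays.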

How the results depend on the processing

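The count of members was 47 with arrays centred on their medians, 48 with quantile normalisation repeated and 44 with group medians, each holding all 41, and 32 to 46 when 1 array was left out. It was 83 at a threshold of 0.3 and 22 at 0.5. Above the baseline, 15 to 19 members were called at 20% and 9 to 13 at 30% inhibition when 1 array was left out. With the 25S control as a covariate 12 and 8 were called, where 15.3% and 16.1% of all probe sets were; 14 were called at 30% inhibition on the 8 arrays compared, and 14 when members were chosen again without 20% inhibition replicate 3, a choice made after seeing the data. Below the baseline, 1 to 3 at 20% and 1 to 2 at 30% inhibition were called when 1 array was left out. Of all probe sets 23.3% to 25.4% and 23.3% to 26.1% were called so. At 20% the count of members was 1 without baseline replicate 1, 2 or 4 or 20% inhibition replicate 3. At 30% it was 2 without 30% inhibition replicate 4. At 20% inhibition 1 was called lower with centring, repeated quantile normalisation, 8 arrays, an adjusted p under 0.01 or members chosen again without replicate 3, and 4 with the 25S control as a covariate. Of all probe sets 22.3%, 24.5% and 19.8% were called lower there with centring, repeated quantile normalisation and that covariate. At 30% inhibition 2 were called lower with array weights and with that covariate, where 26.7% and 20.4% of all probe sets were. From 20% to 30% inhibition 2 to 5 rose and 5 to 9 fell when 1 array was left out, against 3.04% to 5.83% and 1.94% to 3.64% of all probe sets. The risers were 3 without replicate 2 of 20% inhibition or replicate 1 or 2 of 30% inhibition, and 2 without replicate 4 of either state. At an adjusted p under 0.01 2 rose, and 3 rose with centring (3.32% of all) or with 8 arrays. No share of all probe sets was counted with 8 arrays or at an adjusted p under 0.01, and none is given for members chosen again. With the replicate number as a block the 6 counts were 17, 3, 11, 1, 5 and 6, against 17, 2, 9, 1, 5 and 6 without it; of all probe sets 18.6%, 24.6%, 19%, 24.6%, 3.74% and 2.59% were called with the block. The samples share only a number: 5 of 24 same-numbered pairs had deviations correlated above 0.1 (r from −0.36 to 0.31), so this block is no pairing. Of 1020 tests of the 17 named genes under these settings, 982 kept their side of the threshold, 23 lost a call and 15 gained 1, and 0 called values changed sign. In the main fit 13 tests of named genes were called, so most of the 982 were tests without a call. All losses fell on AT4G13800 (30% minus 20% inhibition) and AT2G29670 (20% inhibition minus baseline and 30% minus 20% inhibition). The cause was not tested. Among the gains was UGT84A3 (AT4G15490), called lower than the baseline at 20% inhibition with the 25S covariate (−0.49, adjusted p = 0.016), a signal that itself differs between the states.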
